A study of Mus musculus with 14 samples.

Results

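Immediate early response genes are switched on within minutes of a stimulus, without new protein synthesis, through transcription factors already present in the cell. The 10 described here were taken by name and are 10 of the 49583 genes in the deposited expression table: Fos, Fosb, Jun and Junb, subunits of the AP-1 transcription factor; Egr1 and Egr2, zinc finger transcription factors; Nr4a1 and Nr4a2, orphan nuclear receptors; Ier2, a nuclear regulator; and Dusp1, a phosphatase that switches MAP kinases off. All 10 had a value in all 7 groups, and they were read across the groups as a readout of activation or of stress during sorting.

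RNA sequencing was done on 14 samples of wild type C57BL/6 mice in 7 groups of 2, and the table gives each gene a single mean per group, made by the authors in FPKM (fragments scaled to transcript length and library size). Spleen Ter cells were Ter-119+CD45-Lin- cells sorted from tumor-bearing mice, and liver Ter cells carried the same gate in embryonic liver at E14.5. The control was the CD45+Ter-119- fraction of the spleen of tumor-bearing mice. Bone marrow gave 4 more groups: megakaryocyte-erythroid progenitors (MEP, sorted as c-Kit+ and CD34+, low for FcγR, and Lin−, IL-7R- and Sca-1−), common myeloid progenitors (CMP, the same gate but CD34-), common lymphoid progenitors (CLP, c-Kit+Sca-1+IL-7R+Lin−) and hematopoietic stem cells (HSC, c-Kit+Sca-1+Lin−). No label says whether paired samples are separate animals, or names the tumor, so the p-values below measure only the spread between samples.

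Ter-119 marks cells of the erythroid lineage. Immediate early transcripts are known to rise in blood and spleen cells on antigen, cytokine or growth factor signals, through MAP kinase, cAMP and calcium pathways. They are also known to rise while tissue is dissociated and sorted, and a measurement after a sort reads both.

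The promoters are shown for the 4 genes with the highest mean FPKM in spleen Ter cells among the members with a RefSeq promoter entry. They are given because every member had its lowest mean in liver Ter, although the members split in other comparisons. Each line gives the 250 bases before the transcription start, 5′ to 3′, from RefSeq on the GRCm38 build. The gene coordinates given further below are from the GENCODE M21 annotation. Its starts can differ from those of RefSeq, and do so widely for Nr4a1 and Dusp1. Capitals mark the cAMP response element (CRE, TGACGTCA) and its shorter core TGACG, on either strand. A CRE holds the core on each strand, so these matches overlap.
Junb promoter, chr8:84978749-84978998, minus strand: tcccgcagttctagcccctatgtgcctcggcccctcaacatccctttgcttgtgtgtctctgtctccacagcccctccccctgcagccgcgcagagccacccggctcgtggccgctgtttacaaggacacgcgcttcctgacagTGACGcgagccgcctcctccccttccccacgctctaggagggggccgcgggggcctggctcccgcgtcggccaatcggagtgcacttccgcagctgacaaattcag
Fos promoter, chr12:85473640-85473889, plus strand: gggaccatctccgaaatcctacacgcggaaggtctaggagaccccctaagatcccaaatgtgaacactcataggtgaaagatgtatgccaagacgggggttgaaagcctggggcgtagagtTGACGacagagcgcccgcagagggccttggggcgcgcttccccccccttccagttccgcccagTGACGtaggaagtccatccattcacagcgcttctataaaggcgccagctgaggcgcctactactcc
Dusp1 promoter, chr17:26508473-26508722, minus strand: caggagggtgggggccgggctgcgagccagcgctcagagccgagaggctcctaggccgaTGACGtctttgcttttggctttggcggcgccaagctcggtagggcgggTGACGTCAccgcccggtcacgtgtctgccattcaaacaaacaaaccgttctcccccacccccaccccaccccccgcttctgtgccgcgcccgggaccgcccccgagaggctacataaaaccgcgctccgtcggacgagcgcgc
Nr4a1 promoter, chr15:101266596-101266845, plus strand: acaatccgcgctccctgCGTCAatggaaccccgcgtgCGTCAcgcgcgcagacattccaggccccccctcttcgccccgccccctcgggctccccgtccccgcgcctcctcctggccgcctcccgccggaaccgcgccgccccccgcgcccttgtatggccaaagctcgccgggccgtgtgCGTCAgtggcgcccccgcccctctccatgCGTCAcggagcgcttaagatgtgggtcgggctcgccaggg

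Entries matched 8 of the 10 genes, not Egr1 and Ier2. In the 300-base window that adds 50 bases after the start, the core was present for 7 of the 8 genes, all but Jun, against 20.8% of 32851 promoters. Genes with several starts, such as Egr2, had several windows and counted once if any window matched. The percentages over all promoters count each window, so the 2 are not the same unit. The core was in only some of the Egr2 windows. The full CRE was found for 1 gene, Dusp1, against 1.79% of promoters. The AP-1 motif TGANTCA was found for none of the 8, against 7.81% of promoters, and the CArG box for Egr2 alone, against 1.63%. These matches describe letters in the windows and were not tested for binding.

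The digits of 4 columns (spleen Ter, liver Ter, MEP, CMP) allowed both libraries behind each mean to be recovered, called A (the deeper) and B. Depths ran between 13413530.5 and 28537889 fragments. The control, CLP and HSC columns are taken to come from another procedure, which no label names. They have no recoverable libraries and are given as the authors' means with no error. The spleen Ter libraries stood apart from each other: 29.2% of 12671 genes with at least 1 FPKM in either library differed between them by over 2-fold, while 1.42% did so between the liver Ter libraries, 1.5% between those labelled MEP and 3.04% between those labelled CMP. Markers also went against some labels. Cd34 had a mean of 0.0694 FPKM in the MEP column, gated as CD34+, and 29.7 FPKM in the CMP column, gated as CD34-. In the MEP column 10 neutrophil markers summed to 175280 FPKM and 10 erythroid markers to 22.1 FPKM, so these libraries are called the libraries labelled MEP and labelled CMP. Spleen Ter cells held erythroid markers at a sum of 38369 FPKM, and also neutrophil markers at 24588 FPKM and B cell markers at 5259 FPKM. Ptprc, which encodes CD45, was not analysed here.

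Immediate early transcripts were abundant in every group except liver Ter. Summed over the 10 genes, mean FPKM reached 2343 in spleen Ter and 47.8 in liver Ter. The sum was 882 FPKM for MEP, 1071 for CMP, 2411 in the control, 1789 in CLP and 2558 in HSC. Their share of the total FPKM was 0.623% in spleen Ter and 0.0141% in liver Ter. Junb was the 43rd most abundant gene of spleen Ter cells by mean FPKM and Fos was the 75th.

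**Figure D1:**
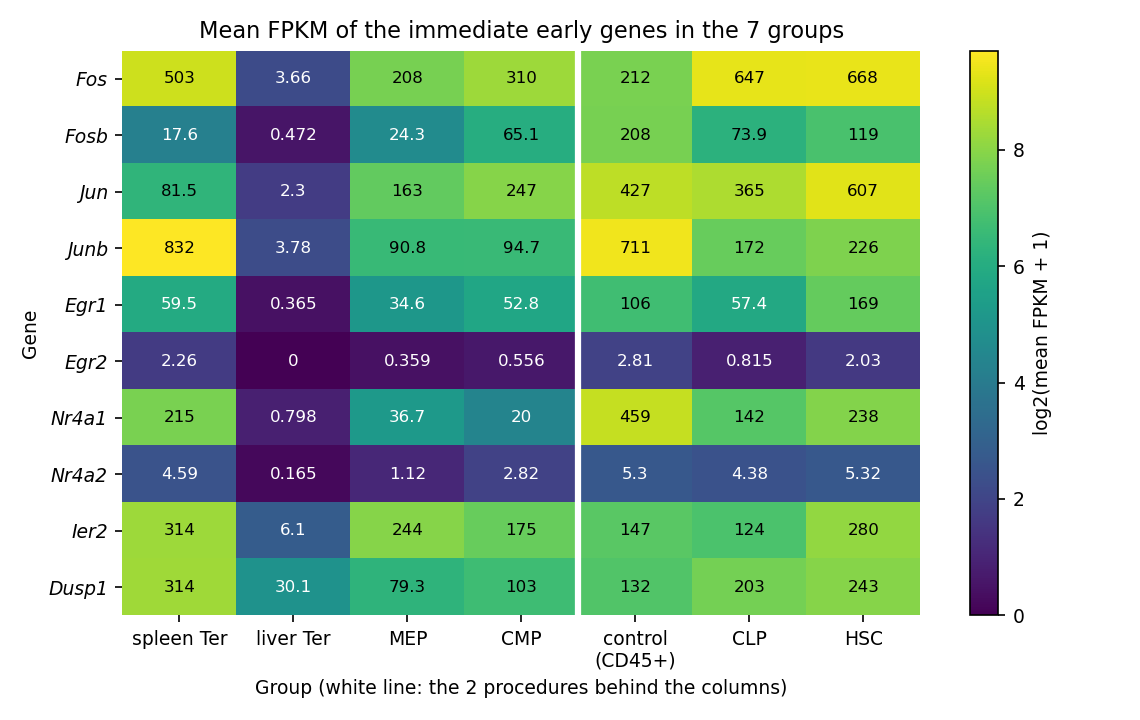
Mean FPKM of the 10 genes (rows) in the 7 groups (columns), printed in each cell and coloured on a log2(mean FPKM + 1) scale. The white line separates columns taken to come from 2 procedures. Liver Ter is the dark column, with values between 0 and 30.1 FPKM, and Junb in spleen Ter is the brightest cell at 832 FPKM.

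The comparison of Ter cells between organs asked how the spleen cells differ from cells with the same gate in embryonic liver. Fos was not resolved, and Egr2 reached the filter of 1 FPKM in 2 libraries only through its spleen Ter libraries, so that its calls are bound to the filter and are left out of the counts. The other 8 genes were all higher in spleen Ter, with log2 fold changes between 2.19 and 7.44 and a median of 4.99, beside a median of 0.79 over all genes tested. The background was high, since 42.9% of 13140 genes were called higher in spleen Ter and 11.7% lower. A gene was called at an adjusted p under 0.05 and at least 2-fold, with limma on log2(FPKM + 1) of the 8 libraries and Benjamini-Hochberg adjustment over all genes. The libraries of the 8 genes did not overlap, as for 62.8% of all genes in this direction. Without spleen Ter library A, and likewise without library B, all 8 were called higher. All genes shifted with the scaling: calls were higher in spleen Ter for 78.6% of called genes as deposited, 52.2% after median-of-ratios scaling, 47.1% after quantile normalization and 65.0% when globin genes were dropped from the totals, and the members called stayed 8 of 8 under all 3.

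Among the AP-1 subunits, Junb led. It encodes a Jun family protein that can oppose Jun (ENSMUSG00000052837, mm10 chromosome 8, 84974484 to 84978718, minus strand). Junb had 706 and 958 FPKM in spleen Ter libraries A and B, against 3.24 and 4.31 FPKM in liver Ter. The fold change of Junb was 7.44 on the log2 scale (SE 0.28, limma adjusted p = 5.44e-06), or 6.65 above the median of all genes. Junb was 106 and 75.7 FPKM in the libraries labelled MEP and 114 and 75.3 FPKM in those labelled CMP. Each spleen Ter library lay far above all 6 others, and the differences from MEP (log2 3.18, limma adjusted p = 0.000181) and from CMP (log2 3.14, limma adjusted p = 0.000193) passed the test. The means of the other columns were 711 FPKM in the control, 172 FPKM in CLP and 226 FPKM in HSC. By mean FPKM the order was spleen Ter, control, HSC, CLP, CMP, MEP and liver Ter, with the MEP and CMP libraries overlapping.

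Jun was higher in spleen Ter than in liver Ter and lower than in the libraries labelled CMP. Jun is the founding AP-1 subunit and binds DNA with a Fos partner (ENSMUSG00000052684, chromosome 4, 95049034 to 95052222, minus strand). Jun had 88.8 and 74.2 FPKM in spleen Ter, 2.16 and 2.43 FPKM in liver Ter and 311 and 183 FPKM in the libraries labelled CMP. Both spleen Ter libraries were above liver Ter (log2 4.64, SE 0.27, limma adjusted p = 5.55e-05) and below both CMP libraries (log2 fold change -1.54, SE 0.27, limma adjusted p = 0.00496). The lower call was lost after median-of-ratios scaling (log2 fold change -0.94, limma adjusted p = 0.0721). The MEP mean of 163 FPKM splits into 254 and 71.6 or into 127 and 198 FPKM in libraries A and B, and both splits satisfy the deposited digits. Jun was not called against MEP under either split, at log2 -0.73 (limma adjusted p = 0.301) under the wider and -0.96 (limma adjusted p = 0.0331) under the narrower, which is under the 2-fold mark. With the wider split in the fit, the call against CMP was lost, at a limma adjusted p = 0.0518. Jun averaged 427 FPKM in the control, 365 FPKM in CLP and 607 FPKM in HSC, so that spleen Ter had the lowest mean after liver Ter.

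Fos is the partner of Jun proteins and the reference immediate early gene (ENSMUSG00000021250, chromosome 12, 85473890 to 85477273, plus strand). The spleen Ter mean of Fos was 503 FPKM, and its libraries were either 592 and 413 FPKM or 41.9 and 963 FPKM, which the digits do not separate. Fos had 3.55 and 3.78 FPKM in liver Ter, 220 and 197 FPKM in the libraries labelled MEP and 382 and 238 FPKM in those labelled CMP. Spleen Ter was higher than liver Ter under both splits, at log2 6.73 and 5.45 (limma adjusted p = 5.98e-06 and 0.00772). Against MEP, Fos was called higher under the even split (log2 1.25, limma adjusted p = 0.00638) and not under the uneven one (log2 -0.04, limma adjusted p = 0.984). Against CMP it was called under neither. The means were 212 FPKM in the control, 647 FPKM in CLP and 668 FPKM in HSC, and the order from the top was HSC, CLP, spleen Ter, CMP, control, MEP and liver Ter, with the control and MEP means within 1.02-fold.

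Fosb, which encodes a further Fos family subunit, had a lower mean in spleen Ter than in the other groups except liver Ter (ENSMUSG00000003545, chromosome 7, 19302696 to 19310051, minus strand). Fosb had 25.4 and 9.87 FPKM in spleen Ter, 0.432 and 0.511 FPKM in liver Ter, 21.3 and 27.4 FPKM in the libraries labelled MEP and 66.8 and 63.3 FPKM in those labelled CMP. The spleen Ter libraries straddled the MEP libraries and lay below both CMP libraries. Fosb was called lower in spleen Ter than in CMP (log2 fold change -1.96, SE 0.39, limma adjusted p = 0.00526), a call lost after median-of-ratios scaling (log2 -1.35, limma adjusted p = 0.0678). Against MEP the value depended on the spleen Ter library: the log2 fold change was -1.21 and called lower without library A (limma adjusted p = 0.000707), and 0.07 without library B. The Fosb means of the control, CLP and HSC were 208, 73.9 and 119 FPKM, and spleen Ter had the lowest mean after liver Ter.

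**Figure D2:**
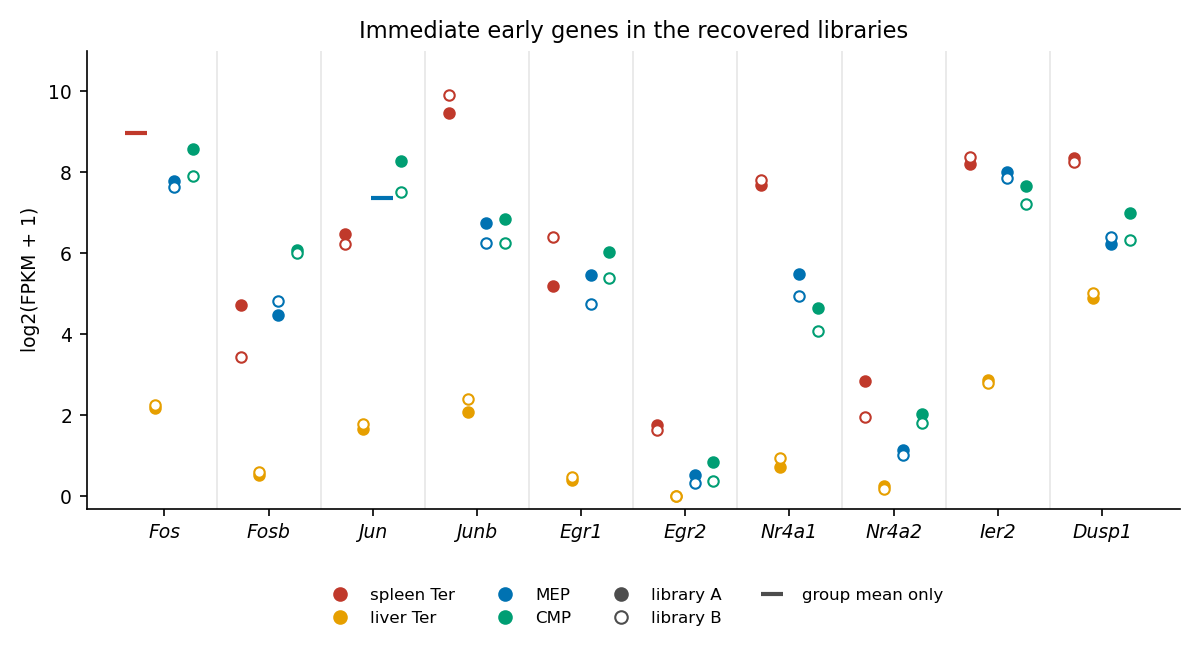
Level of each gene on a log2(FPKM + 1) scale in the recovered libraries of 4 groups, with library A filled and library B open. A dash gives the group mean where the libraries were not resolved (Fos in spleen Ter, Jun in MEP). Liver Ter libraries are lowest for every gene, and Junb and Nr4a1 in spleen Ter stand clear of all other libraries.

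Ratios between AP-1 subunits were taken in FPKM, a scale per length on which genes can be compared. Junb was 10.2 times Jun in spleen Ter (7.95 in library A and 12.9 in library B), 1.64 times in liver Ter and 0.384 times in the libraries labelled CMP. The ratio of means was 0.558 in MEP, 1.67 in the control, 0.471 in CLP and 0.372 in HSC. Both spleen Ter libraries were above every library and mean with a value for this ratio. Fos was 28.5 times Fosb by mean in spleen Ter, 7.77 times in liver Ter, 8.57 in MEP, 4.77 in CMP, 1.02 in the control, 8.76 in CLP and 5.64 in HSC. Under the even split of Fos the spleen Ter libraries had ratios of 23.3 and 41.9, and under the uneven one 1.65 and 97.6, so the place of spleen Ter above all groups in the Fos to Fosb ratio holds in both libraries only under the even split. These ratios were chosen after the values were seen and were not tested.

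**Figure D3:**
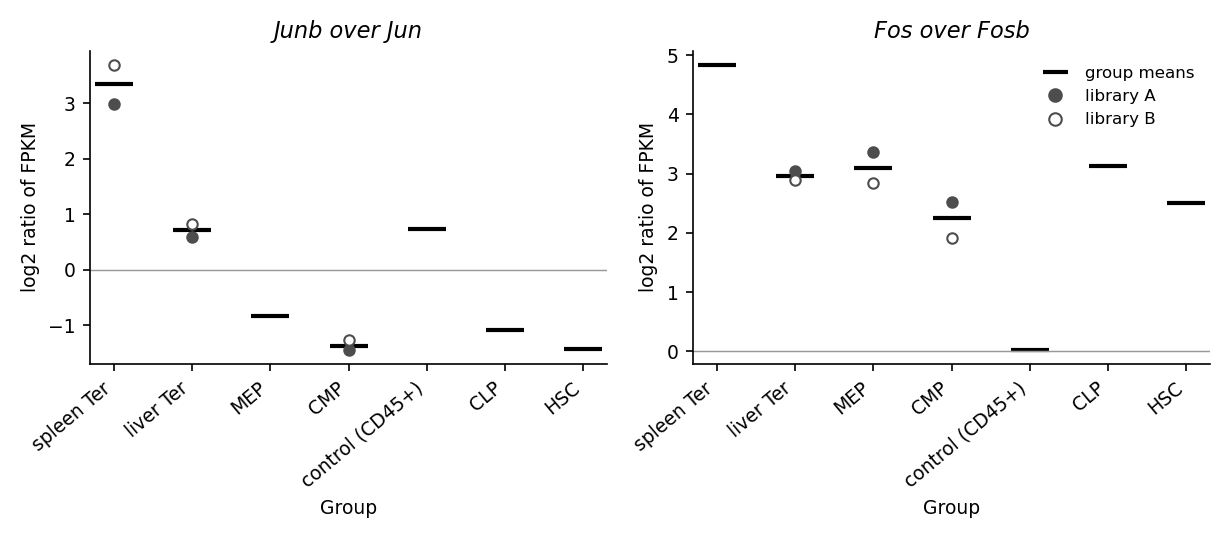
Ratio of Junb to Jun (left) and of Fos to Fosb (right) in FPKM, on a log2 scale, in each group. Bars are ratios of the group means, and circles are libraries where both genes were resolved. Junb exceeds Jun 10.2-fold in spleen Ter and falls short of it in MEP, CMP, CLP and HSC, while the control has nearly equal Fos and Fosb at a ratio of 1.02.

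Nr4a1, also called Nur77, is a nuclear receptor used as a reporter of antigen receptor signalling in lymphocytes (ENSMUSG00000023034, chromosome 15, 101254269 to 101274795, plus strand). Nr4a1 had 206 and 225 FPKM in spleen Ter, 0.652 and 0.945 FPKM in liver Ter, 43.7 and 29.8 FPKM in the libraries labelled MEP and 24.0 and 16.1 FPKM in those labelled CMP. The 4 groups did not overlap in any pair. Spleen Ter was higher than liver Ter by log2 6.91 (SE 0.26, limma adjusted p = 5.20e-06), than MEP by 2.54 (limma adjusted p = 0.000294) and than CMP by 3.39 (limma adjusted p = 0.000110). The control mean was 459 FPKM, that of CLP 142 FPKM and that of HSC 238 FPKM, in the order control, HSC, spleen Ter, CLP, MEP, CMP and liver Ter.

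Nr4a2, its relative Nurr1, was far scarcer (ENSMUSG00000026826, chromosome 2, 57106830 to 57124003, minus strand). Nr4a2 had 6.26 and 2.91 FPKM in spleen Ter, 0.190 and 0.140 FPKM in liver Ter, 1.21 and 1.03 FPKM in the libraries labelled MEP and 3.11 and 2.52 FPKM in those labelled CMP. Spleen Ter libraries overlapped only those of CMP. It was called higher in spleen Ter than in liver Ter (log2 2.19, SE 0.30, limma adjusted p = 0.000679) and than in MEP (log2 1.33, limma adjusted p = 0.00809). The MEP call was lost after quantile normalization (limma adjusted p = 0.0702), without spleen Ter library A (log2 0.89) and without MEP library B (limma adjusted p = 0.0537). The control at 5.30 FPKM, CLP at 4.38 FPKM and HSC at 5.32 FPKM all lay within the range of the spleen Ter libraries.

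Egr1, induced by MAP kinase signals through serum response factor, had the widest gap between the spleen Ter libraries after Fosb among the 9 resolved members (ENSMUSG00000038418). Egr1 had 35.8 and 83.3 FPKM in spleen Ter, 0.336 and 0.394 FPKM in liver Ter, 43.1 and 26.1 FPKM in the libraries labelled MEP and 64.8 and 40.8 FPKM in those labelled CMP. The spleen Ter values enclosed both CMP values and both lay above liver Ter (log2 5.35, SE 0.44, limma adjusted p = 8.22e-05). Egr1 was not called against MEP (log2 0.69, limma adjusted p = 0.223) or CMP (log2 0.09, limma adjusted p = 0.884). Without spleen Ter library A it was called higher than MEP (log2 1.29, limma adjusted p = 0.0174). HSC had the highest Egr1 mean, 169 FPKM, followed by the control at 106 FPKM, while CLP at 57.4 FPKM lay between the spleen Ter libraries.

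Egr2, a zinc finger factor of lymphocytes and myeloid cells, was near the limit of detection (ENSMUSG00000037868, chromosome 10, 67535475 to 67542188, plus strand). Egr2 had 2.40 and 2.12 FPKM in spleen Ter, 0 fragments in both liver Ter libraries, 0.454 and 0.264 FPKM in the libraries labelled MEP and 0.804 and 0.307 FPKM in those labelled CMP. Set against a floor of 3 fragments per liver Ter library, its mean was at least 55.6-fold higher in spleen Ter. The floor covers counting error only. Egr2 averaged 2.81 FPKM in the control, 0.815 FPKM in CLP and 2.03 FPKM in HSC. Among the 8 libraries only those of spleen Ter passed 1 FPKM, so the calls against the other groups follow from the filter and are not read as results.

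Ier2, which encodes a nuclear protein induced by growth factors, was between 124 and 314 FPKM by mean in the 6 groups other than liver Ter (ENSMUSG00000053560, chromosome 8, 84661331 to 84662852, minus strand). Ier2 had 295 and 332 FPKM in spleen Ter, 6.29 and 5.92 FPKM in liver Ter, 258 and 230 FPKM in the libraries labelled MEP and 202 and 148 FPKM in those labelled CMP. Liver Ter was again far below, and spleen Ter lay above both marrow groups without overlap. Spleen Ter exceeded liver Ter by log2 5.47 (SE 0.17, limma adjusted p = 3.67e-06). The difference from MEP was log2 0.36 (limma adjusted p = 0.116), and that from CMP was log2 0.85 (limma adjusted p = 0.00564), under the 2-fold mark. The CMP difference was called after median-of-ratios scaling (log2 1.45, limma adjusted p = 0.00135), and the MEP difference turned to -0.13 after quantile normalization. Spleen Ter had the highest Ier2 mean of the 7 groups, followed by HSC at 280 FPKM, MEP, CMP, the control at 147 FPKM, CLP at 124 FPKM and liver Ter.

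Dusp1 is the feedback inhibitor among the members, since its protein dephosphorylates the MAP kinases that induce it (ENSMUSG00000024190, chromosome 17, 26505590 to 26562128, minus strand). Dusp1 was the only member above 10 FPKM in liver Ter. It had 324 and 304 FPKM in spleen Ter, 29.0 and 31.3 FPKM in liver Ter, 74.6 and 84.0 FPKM in the libraries labelled MEP and 127 and 79.3 FPKM in those labelled CMP. Spleen Ter lay above all others, by log2 3.34 from liver Ter (SE 0.22, limma adjusted p = 3.43e-05), 1.98 from MEP (limma adjusted p = 0.000436) and 1.64 from CMP (limma adjusted p = 0.00101). HSC came next after spleen Ter by mean at 243 FPKM, then CLP at 203 FPKM, the control at 132 FPKM, CMP, MEP and liver Ter, with the CMP and MEP libraries overlapping.

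Against the marrow libraries the members split. In the comparison with MEP, and leaving out Egr2, 4 of 7 tested members were higher in spleen Ter (Nr4a1, Nr4a2, Junb and Dusp1), and Fosb, Egr1 and Ier2 were not called, where 23.2% of all genes were called higher and 19.4% lower. Without spleen Ter library A Egr1 was called in place of Nr4a2 and Fosb was called lower, and without library B the same 4 were higher. The calls ran higher for 54.5% of called genes as deposited and for 38.1% without spleen Ter library B. In the comparison with CMP, 3 of 8 were higher (Nr4a1, Junb and Dusp1) and 2 lower (Fosb and Jun), where 13.9% of all genes were called higher and 28.2% lower. Without spleen Ter library A, and likewise without B, the same 3 were higher and the same 2 lower. After median-of-ratios scaling 4 members were higher, with Ier2 added, and Fosb and Jun were no longer called, and the share of calls that ran higher was 57.2%, beside 33.0% as deposited and 44.1% after quantile normalization. The median log2 fold change of the members was 1.33 against MEP and 0.67 against CMP, beside 0.09 and -0.40 over all genes. Nr4a1, Junb and Dusp1 were called higher than in liver Ter, MEP and CMP in the fit as deposited. These 3 comparisons share the spleen Ter libraries.

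**Figure D4:**
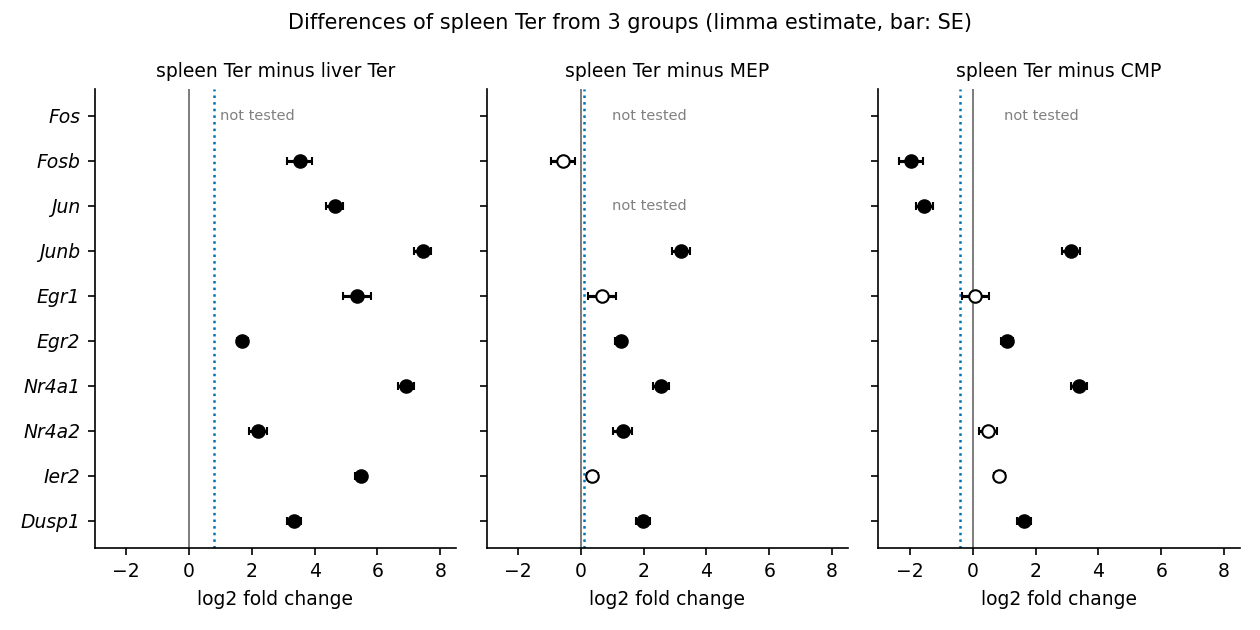
Log2 fold change of each gene in spleen Ter minus liver Ter (left), minus MEP (middle) and minus CMP (right), with limma SE as bars. Filled points passed the test, open points did not, and the dotted line is the median of all genes tested. Egr2 entered the test only through its spleen Ter libraries. All points lie right of the dotted line against liver Ter, while Fosb and Jun lie left of it against CMP.

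Liver Ter was low against the marrow libraries as well. Leaving out Egr2, it was lower than MEP for 7 of 8 tested members, where 33.2% of all genes were called lower and 8.76% higher. It was lower than CMP for 9 of 9, where 53.1% were called lower and 6.95% higher. Against MEP 6 were called after median-of-ratios scaling, where Dusp1 was lost (log2 -0.29, limma adjusted p = 0.414). Against CMP 7 were called after that scaling and 7 after quantile normalization. Nr4a2 was lost under both (log2 -0.95 and -0.73, limma adjusted p = 0.0732 and 0.211), as was Dusp1. The members' median log2 fold change was -4.31 against MEP and -4.62 against CMP, beside -0.54 and -1.12 over all genes. Fos and Jun were the lowest against CMP, with log2 fold changes of -6.02 and -6.18 (limma adjusted p = 2.01e-05 and 2.62e-05). Dusp1 changed least among those called, at -1.36 against MEP and -1.70 against CMP, and turned to 0.11 against CMP after median-of-ratios scaling. Under that scaling the median over all genes against CMP was -0.02, beside -1.12 as deposited, and the share of calls that ran higher in liver Ter was 51.8% under it, 47.7% after quantile normalization and 26.0% without globin genes, beside 11.6% as deposited. Against MEP these shares were 49.2%, 48.7% and 44.6%, beside 20.9% as deposited.

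Markers of other cell types moved with the difference between spleen Ter and liver Ter. All 8 B cell markers had at least 1 FPKM in spleen Ter, with a sum of 5259 FPKM, against 1 of 8 and a sum of 3.61 FPKM in liver Ter, where Ms4a1 was at 0. All 8 T cell markers did so in spleen Ter, with a sum of 526 FPKM, against 1 of 8 and a sum of 2.73 FPKM in liver Ter, where Cd3e, Cd8a, Trac and Cd5 were at 0. In the control the B cell and T cell sums were 5335 and 711 FPKM. Neutrophil markers summed to 24588 FPKM in spleen Ter and 281 FPKM in liver Ter, and erythroid markers to 38369 FPKM in spleen Ter and 124110 FPKM in liver Ter. Macrophage and monocyte markers summed to 743 FPKM in spleen Ter, 14.3 FPKM in liver Ter and 66.5 FPKM in the control. The spleen Ter libraries differed in these markers, with macrophage and monocyte sums of 327 FPKM in A and 1160 FPKM in B, and with sums over the 4 erythroid markers resolved in all 8 libraries of 38.5 FPKM in A and 4.57 FPKM in B. Their part in the members' levels was not tested, and in bulk samples fewer cells of a type and less RNA per cell cannot be told apart.

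The comparison of the libraries labelled MEP with those labelled CMP gave 1 call. Fosb was called lower in MEP, with a log2 fold change of -1.39 (SE 0.39, limma adjusted p = 0.0258), which is 1 of 8 tested members without Egr2, where 24.3% of all genes were called lower and 7.31% higher. That call was lost when any 1 of the 4 MEP and CMP libraries was left out, with limma adjusted p between 0.0761 and 0.138. Nr4a1 had a log2 fold change of 0.85 in MEP (limma adjusted p = 0.0336), under the 2-fold mark, and was called higher after median-of-ratios scaling (log2 1.55, limma adjusted p = 0.00511). Under that scaling Ier2 was also called higher in MEP (log2 1.24, limma adjusted p = 0.00377), and Fosb was not called. The share of calls that ran higher in MEP was 61.2% under that scaling and 50.5% after quantile normalization, beside 23.1% as deposited.

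Between the libraries of a group, the members shared 1 direction in CMP. All 9 members with at least 1 FPKM in either library were higher in CMP library A than in library B, by a median of 0.59 on the log2 scale, beside 0.04 over all genes. Jun had the widest gap, 311 FPKM in A and 183 FPKM in B, a log2 difference of 0.76. In the MEP libraries 6 of 8 members were higher in A, with a median of 0.16, beside -0.013 over all genes. In spleen Ter 5 of 9 were, with a median of 0.09, beside -0.53 over all genes. In liver Ter 1 of 5 was, with a median of -0.10, beside -0.0007. Lymphoid, neutrophil and erythroid markers differed the same way in CMP, with Ly6g at 13.1 FPKM in A and 1.19 in B and Cd79a at 4.55 and 0.461 FPKM. The 4 resolved erythroid markers summed to 19.2 and 10.8 FPKM there. Macrophage and monocyte sums (551 and 619 FPKM) and megakaryocyte and platelet sums (33.4 and 35.2 FPKM) went the other way. In spleen Ter the macrophage and monocyte sum was higher in B, as Egr1 was, at 327 FPKM in A and 1160 in B. Ly6c2 of that list went the other way, at 157 and 77.7 FPKM. B cell sums (1128 and 1559 FPKM) and T cell sums (455 and 597 FPKM) were also higher in B. Higher in A, as Fosb was, were the erythroid sums (38.5 and 4.57 FPKM) and neutrophil sums (216 and 136 FPKM) of 4 resolved markers each. The part of these cells in the members' differences was not tested.

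**Figure D5:**
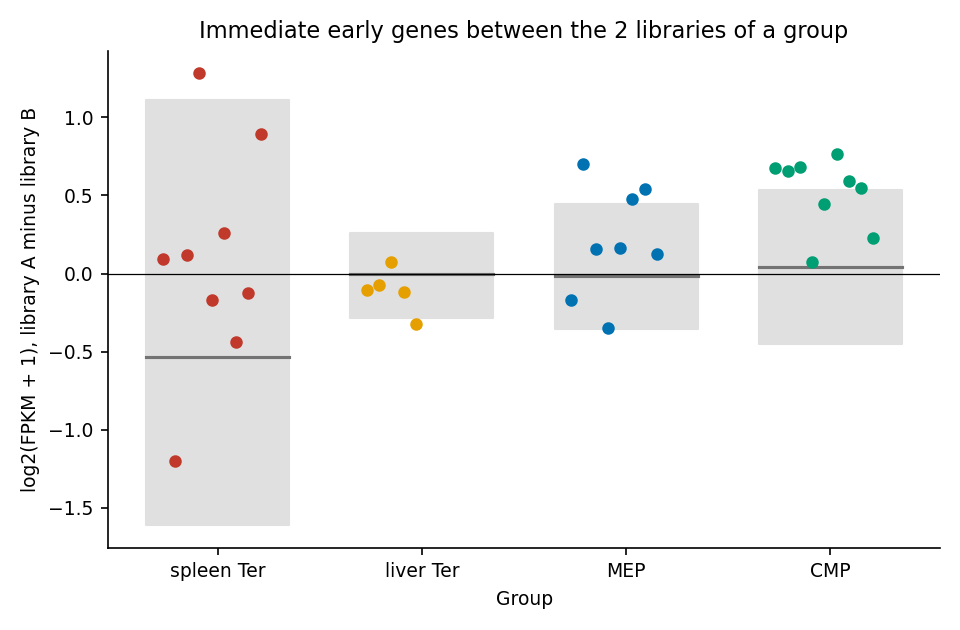
Difference between library A and library B of a group for each resolved member with at least 1 FPKM in either library, on the log2(FPKM + 1) scale. Grey boxes span the 5th to the 95th percentile of all such genes and grey lines their median. All 9 CMP points lie above 0, while the spleen Ter points spread between -1.20 and 1.28.

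Against the CD45+ control, the sum of the members was close and single members were not. By the authors' means, Fos (503 against 212 FPKM), Ier2 (314 against 147 FPKM) and Dusp1 (314 against 132 FPKM) were past 2-fold in favour of spleen Ter, counted on log2(FPKM + 1) here and in the comparisons of means that follow. Fosb (17.6 against 208 FPKM), Jun (81.5 against 427 FPKM) and Nr4a1 (215 against 459 FPKM) were at least 2-fold lower. That is 3 of 10 each way, beside 13.5% of all genes higher and 28.4% lower. Nr4a1 no longer passed 2-fold after median-of-ratios scaling, with a log2 difference of -0.70. Junb was close in both, 832 FPKM in spleen Ter and 711 FPKM in the control. The 2 columns are taken to come from different procedures and have no error, so these differences were not tested. Of all genes past 2-fold, 32.2% were higher in spleen Ter as deposited, 48.3% after median-of-ratios scaling and 51.3% after quantile normalization.

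Against HSC, spleen Ter had 1 member at least 2-fold higher, Junb at 832 against 226 FPKM, and 3 lower, Fosb at 17.6 against 119 FPKM, Jun at 81.5 against 607 FPKM and Egr1 at 59.5 against 169 FPKM. The background was 14.2% of genes higher and 34.1% lower, a share higher of 29.3% that was 53.8% after median-of-ratios scaling. Under that scaling Egr1 no longer passed 2-fold (log2 -0.80), and Dusp1 was past it in favour of spleen Ter (log2 1.06). Against CLP, Junb (832 against 172 FPKM) and Ier2 (314 against 124 FPKM) were higher and Fosb (17.6 against 73.9 FPKM) and Jun (81.5 against 365 FPKM) lower, beside 15.5% and 35.9% of all genes, a share higher of 30.2% that was 53.3% after that scaling. Egr2, at 2.26 against 0.815 FPKM, was 2.77-fold higher than in CLP by plain FPKM but not on log2(FPKM + 1), at 0.84. After that scaling Nr4a1 (log2 1.29), Egr2 (log2 1.15) and Dusp1 (log2 1.33) were also past 2-fold over CLP. Fosb and Jun were thus at least 2-fold below the control, HSC and CLP alike in these means.

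Among the columns of the other procedure, the control had Junb at 711 against 226 FPKM in HSC and Fos at 212 against 668 FPKM, the 2 members past 2-fold, beside 10.5% of genes higher and 16.2% lower. After median-of-ratios scaling 4 members passed 2-fold in that comparison, and the share of genes past 2-fold that were higher in the control was 55.8%, beside 39.2% as deposited. Against CLP the control was higher for Nr4a1, Fosb, Junb and Egr2 and lower for Fos, 4 and 1 of 10, beside 11.1% and 17.0%, a share higher of 39.5% that was 55.6% after that scaling, where Egr1 also passed (log2 1.18). CLP had 2 members at least 2-fold below HSC, Egr1 at 57.4 against 169 FPKM and Ier2 at 124 against 280 FPKM, where 3.09% of all genes were this much lower and 2.45% higher. Egr2, at 0.815 FPKM in CLP against 2.03 FPKM in HSC, had a ratio of 0.401 in plain FPKM and passed 2-fold with a pseudocount of 0.1 (log2 -1.22) but not of 1 (log2 -0.74). Fos was at 647 FPKM in CLP and 668 FPKM in HSC.

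Other immediate early genes, a list of 42, were mostly higher in spleen Ter than in liver Ter. There 31 of 38 tested were higher and 1 lower by limma, where 42.9% and 11.7% of all genes were. Their median log2 fold change was 3.18, beside 0.79 over all genes. Among the 4 groups with libraries, Nr4a3 (4.29 FPKM), Dusp4 (3.90 FPKM) and Egr3 (1.05 FPKM) had means above 1 FPKM in spleen Ter alone. Any call of these genes is bound to the filter. Klf2, a factor of quiescent lymphocytes, rose most, to 395 and 294 FPKM in spleen Ter, against 0.304 and 0.309 FPKM in liver Ter (log2 8.03, limma adjusted p = 2.84e-06). The MAP kinase phosphatase Dusp2 (log2 6.74, limma adjusted p = 2.84e-06) and the mRNA decay factor Zfp36 (log2 6.11, limma adjusted p = 1.82e-05) followed. The kinase gene Pim1 fell, to 31.0 and 26.3 FPKM in spleen Ter, against 180 and 180 FPKM in liver Ter (log2 -2.62, limma adjusted p = 2.53e-05). Against MEP 17 of 37 were higher and 3 lower, beside 23.2% and 19.4% of all genes, with Myc at the top (log2 3.84, limma adjusted p = 7.26e-05) and the small GTPase gene Rhob at the bottom (log2 -2.61, limma adjusted p = 0.000376). Against CMP 17 of 38 were higher and 3 lower, beside 13.9% and 28.2%, led by the antiproliferative gene Btg1 (log2 2.86, limma adjusted p = 5.84e-05), with Rhob again lowest (log2 -2.52, limma adjusted p = 0.000465).

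Heat shock genes, known for their response to heat and other protein-damaging stress, gave mixed calls. Of 14, 7 of 13 tested were higher in spleen Ter than in liver Ter and 1 lower, beside 42.9% and 11.7% of all genes, with a median of 1.39 beside 0.79. Against MEP 3 of 12 were higher, beside 23.2%, with a median of 0.73 beside 0.09. Hspe1 rose most among the genes called, against liver Ter (log2 2.86, limma adjusted p = 2.84e-05) and MEP (log2 3.07, limma adjusted p = 5.05e-05). Against CMP the median was -0.47, beside -0.40 over all genes, and 2 of 12 were lower, beside 28.2%, Hspa8 (log2 -1.22, limma adjusted p = 0.0179) and Hspd1 (log2 -2.10, limma adjusted p = 9.06e-05). The inducible Hspa1a and Hspa1b were at 0.779 and 2.34 FPKM in spleen Ter and 0.0524 and 0.267 FPKM in liver Ter. They were at 0.371 and 1.16 FPKM in MEP and 1.04 and 2.67 FPKM in CMP. The control had 11.5 and 14.9 FPKM, CLP 59.7 and 63.0 FPKM and HSC 47.9 and 53.0 FPKM. All the higher values were thus in the columns with no recovered libraries. Hspa1a and Hspa1b are near identical paralogs, so the split between them is uncertain.

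Genes of the kinases and factors upstream of the members, a list of 22, were mixed. Against liver Ter 10 of 22 were higher in spleen Ter and 1 lower, beside 42.9% and 11.7% of all genes, with a median of 0.99 beside 0.79. Against MEP 3 were higher and 7 lower, beside 23.2% and 19.4%, and against CMP 2 were higher and 9 lower, beside 13.9% and 28.2%. Crem, among the higher calls against both, reached the filter only through its spleen Ter libraries (7.70 and 2.29 FPKM). Its calls are bound to the filter. Mef2c, a calcium-responsive factor, was higher in all 3 comparisons, at 10.2 and 15.0 FPKM in spleen Ter, against 0.132 and 0.203 FPKM in liver Ter (log2 3.52, limma adjusted p = 2.51e-05). Srf, which encodes serum response factor, was lower than in CMP (log2 -1.90, limma adjusted p = 0.00104). The lowest call against CMP was the kinase gene Rps6ka1 (log2 -2.09, limma adjusted p = 0.000118). Mapk3, which encodes ERK1, was lower than in MEP (log2 -3.23, limma adjusted p = 2.48e-05).

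Across the 8 libraries, the 28 pairs of resolved members had Pearson correlations of log2(FPKM + 1) between 0.42, for Fosb with Egr2, and 0.99, with a median of 0.87. These points share libraries and 4 group means, so the values describe the pattern only. The members' mean profile was taken over the 8 members resolved in all 8 libraries, with Egr2 and without Fos and Jun. Among 8745 ranked genes, the 5 closest to it were Vti1b and Ppp1r11 (r = 0.995 each), Rnf125 and Polr2g (r = 0.994 each) and Nfkbia (r = 0.992). Nfkbia, which encodes an inhibitor of NF-kappaB, had 524 and 381 FPKM in spleen Ter, 6.02 and 7.01 FPKM in liver Ter, 71.7 and 79.0 FPKM in the libraries labelled MEP and 110 and 97.1 FPKM in those labelled CMP.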

How the data were processed

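Bulk RNA sequencing of sorted mouse cells was deposited by the authors as 1 FPKM value per gene and group, which the values show to be group means. Per the submitters' processing notes the genome build was mm10, while no aligner, counter or annotation is named in the sources used here. Of 49588 lines, 2 had no gene name and 3 were repeats. IDs were matched to GENCODE M21 for 49324 of 49583 genes. The planned test needed values per sample, which the table does not hold.

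In the spleen Ter, liver Ter, MEP and CMP columns, a mean times exon length is a sum of whole fragments of 2 libraries, each weighted by its depth. Solving for whole fragments gave both libraries for 13889 (98.9%) of the 14049 genes whose mean reached 1 FPKM in any of these columns. This step was added after seeing the values and was tested on simulated data. For 2563 of these genes the length was searched for, among them Nr4a1 and Dusp1. Between 38.2% and 73.9% of a library's fragments fell in resolved genes. The control, CLP and HSC columns were taken to come from another procedure and were not tested.

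The 8 libraries were fitted with limma 3.58.1 in R 4.3.3 (eBayes with trend) on log2(FPKM + 1), a scale that understates changes of low genes, with a filter of 1 FPKM in 2 libraries, 4 residual and 2.6 prior degrees of freedom, and Benjamini-Hochberg adjustment. The spread is shared by the 4 groups. For Fos in spleen Ter and Jun in MEP 2 solutions fit, so comparisons that need them were not tested; both solutions were tried as alternatives. Other alternatives were the pseudocount, the filter, 3 other scalings, a fit of 2 groups and leaving out each library. The genes named are the 10 members and, from each other list, some of those with the largest changes among the genes called. Hspa1a, Hspa1b, Nr4a3, Dusp4 and Egr3 were named outside that rule. So were the cell type markers and the genes closest to the members in profile. Egr2 was left out of the counts of calls after its values were seen. Genes of the other lists that reached the filter through spleen Ter alone were kept in the counts. The members and lists were chosen with earlier results of these data known.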

Additional observations from a re-analysis of the deposited data

How the results depend on the processing

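No paired analysis was possible because the columns are group means and the recovered libraries carry no replicate number. Of 138 counts of members under alternatives, 129 stayed within 1.5 times the count as deposited, both taken with Egr2. These counts do not follow which members were called or in which direction. In MEP against CMP the 1 call was Fosb lower as deposited and Nr4a1 higher after quantile normalization. Counted with Egr2, members called in spleen Ter against MEP were 5 in the fit as deposited and 3 with a filter of 5 FPKM. In MEP against CMP they were 2 with a pseudocount of 0.1, 0 with no filter, 2 after median-of-ratios scaling and between 0 and 1 with a library left out. Past 2-fold, median-of-ratios scaling gave 7 in spleen Ter against CLP and 4 in control against HSC, and quantile normalization gave 4 in control against HSC.

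Of 1035 values of single genes, 17 were counted as turned in sign. In the comparisons of means only members past 2-fold as deposited could be counted so. Turns of smaller differences there were not counted. In spleen Ter against MEP, Ier2 was -0.13 (log2) after quantile normalization, and Fosb ran between -1.21 and 0.072 with a library left out. In spleen Ter against CMP, Egr1 ran between -0.51 and 0.68. Dusp1 was 0.11 in liver Ter against CMP after median-of-ratios scaling. In MEP against CMP that scaling gave 0.22 (Fos), 0.69 (Junb), 0.13 (Egr1), 0.036 (Egr2) and 0.40 (Dusp1), and quantile normalization gave 0.0046, 0.38, 0.034 and 0.035 for Fos, Junb, Egr2 and Dusp1. With a library left out Junb ran between -0.35 and 0.25 and Egr2 between -0.41 and 0.053. The cause was not tested. With 1 library left in a group, that library is assumed to vary like the others. Depth is unknown for control, CLP and HSC.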
